A study of Mus musculus with 12 samples.

Results

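Glucose carriers, the enzymes of glycolysis and lactate handling, the pentose phosphate pathway, glycogen metabolism and the response to low oxygen were examined in mouse neutrophils. The 42 genes were taken by symbol out of 28987 genes in the expression table, and all 42 were found there. The rule uses no measured value, but the list was drawn up with earlier results of these data known. For this description they were divided by role into 4 carriers, 10 genes of upper glycolysis, 8 of lower glycolysis and lactate, 4 regulators, 6 genes of the hypoxia response, 4 of the pentose phosphate pathway and 6 of glycogen metabolism. Levels are given as TPM, the share of a gene among all transcripts of a library scaled to a fixed total, which is corrected for transcript length, so that levels of different genes within a library can be set side by side.

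Neutrophils are known to rely mainly on glycolysis, with few mitochondria at work. Glucose enters through carriers, is phosphorylated by hexokinase and is split to pyruvate, which lactate dehydrogenase turns into lactate. A branch from glucose 6-phosphate, the pentose phosphate pathway, makes NADPH, the fuel of the oxidative burst, and another branch stores glucose as glycogen. Under low oxygen the prolyl hydroxylases stop marking the factor Hif1a for destruction, and Hif1a then raises many genes of glycolysis.

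The cells came from FVB mice, either wild type (WT) or MRP8-Bcl2 transgenic, in which human Bcl-2 is driven by regulatory regions of the human MRP8 gene, active in myeloid cells. All mice of all 4 groups had received 2 mL thioglycollate into the peritoneum, so no group is untreated, and their age is not given in the sources used here. Bone marrow (BM) and peritoneal (PT) cells of each genotype gave 3 RNA libraries per group, with the groups called BM WT, BM Bcl2, PT WT and PT Bcl2. The sample labels give collection at 6 h and name macrophages as the source, while the methods give 4 or 8 h and the deposited design names neutrophils. The methods say that cells of both sites were taken from each mouse, but nothing states which mouse a library came from, so the libraries of the 2 sites were compared as unpaired, and p-values measure the spread between these libraries only. In the text below, the values of a group are given in the order of the library numbers (4, 5 and 6 for BM WT; 10, 11 and 12 for PT WT; 1, 2 and 3 for BM Bcl2; 7, 8 and 9 for PT Bcl2).

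Several features of the libraries moved with the site. Reads falling on 5021 genes used to estimate depth numbered 62695 to 304390 per library, and 1 read on a transcript of 1 kb was worth 0.351 to 1.65 TPM, so genes of a few TPM rest on few reads. The 108 genes whose annotated transcripts hold an unbroken stretch of 31 or more A or T took 8.93 to 24.1% of the TPM in the 6 BM libraries and 15.5 to 65.6% in the 6 PT libraries, where libraries 7 and 12 were in the BM range. Summed over 8 neutrophil markers, the level was 76743 to 350674 TPM in BM and 14406 to 67686 TPM in PT, with all 8 detected in every group. S100a8 and S100a9 make up most of that sum, and single markers differed in direction. Ly6g gave 588 to 1266 TPM in the BM libraries of WT mice against 0 to 14.9 TPM in the PT ones, and overlapped between the sites in Bcl2 (51.5 to 1225 and 58.9 to 126 TPM). Csf3r, the receptor for G-CSF, was higher in every PT library (1839 to 4569 TPM) than in any BM library (132 to 1038 TPM), and the chemokine receptor Cxcr2 overlapped between the sites. The 5 genes of dividing cells summed to 180 to 1329 TPM in BM and 20.05 to 72.2 TPM in PT, and the 7 measured genes of immature neutrophils to 10900 to 31134 and 78.2 to 185 TPM. Mast cell genes reached 633 TPM in library 12, against at most 9.94 TPM in any BM library. The 7 measured macrophage genes summed to 12.8 to 97.0 TPM in BM WT and 56.0 to 76.5 TPM in PT WT. In Bcl2 they summed to 14.4 to 86.1 TPM in BM and 33.5 to 141 TPM in PT. The highest sum was that of library 7, with Csf1r at 96.7 and C1qb at 32.7 TPM, while C1qa was at 0 in the PT Bcl2 libraries. The part of these differences in the results below was not tested. Library 9, labelled PT Bcl2, had 0.695 TPM in the row of mouse Bcl2, within the 0.219 to 2.37 TPM of the WT libraries, whereas the other 5 Bcl2 libraries had 58.6 to 333 TPM, and results for PT Bcl2 are therefore also given without it. In bulk RNA, fewer cells of a type and less RNA per cell cannot be told apart.

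The first question was which of these genes differ between neutrophils that had reached the peritoneum and those still in the marrow. In WT mice 4 members were lower in PT and none was higher, and in Bcl2 mice 12 were lower and none was higher. The 4 genes lower in WT, G6pdx, Tkt, Gpi1 and Ldha, were also lower in Bcl2. These counts are of 40 members tested, since Pfkm and Aldoc did not reach 1 TPM in 3 libraries. A gene was called by limma at a Benjamini-Hochberg adjusted p under 0.05 over all 13456 genes tested and a change of at least 2-fold. By the same rule 1.22% of all genes tested were lower in PT WT and 1.59% higher, so the share of members lower, 10%, was above the background. That share rests on 4 genes of a list drawn up with earlier results known. The genes of the background were not matched to the members in abundance. In Bcl2 mice 19.1% of all genes were lower and 2.31% higher, beside 30% and 0% of the members. Lower in both genotypes were 4 members, 10%, against 1.03% of all genes. At an unadjusted p under 0.05, 7 members were higher and 6 lower in WT, or 32.5% of the members beside 16.5% of all genes in either direction, and 2 were higher and 15 lower in Bcl2, or 42.5% beside 37.2%.

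The median change of the members was a log2 of -0.35 in WT, where all genes had a median of 0.22, and -0.82 in Bcl2, where all genes had -1.02. Scaling between libraries mattered for these counts. Centring each library on its median gave 0 members higher and 3 lower in WT, where it called 0.832% of all genes higher and 1.46% lower. In Bcl2 centring gave 5 higher and 1 lower, shares of 12.5 and 2.5%, close to the 12.2 and 3.47% of all genes, whose median moved from -1.02 to 0.57. Quantile normalization gave 0 higher and 5 lower in WT (1.73 and 1.96% of all genes), and 2 higher and 5 lower in Bcl2 (5.04 and 5.79% of all genes). Leaving out the 108 genes with A or T runs and rescaling the TPM gave 4 higher and 2 lower in WT (3.49 and 0.786% of all genes), and 3 higher and 5 lower in Bcl2 (3.88 and 7.74% of all genes). Without library 9, 2 members were higher and 11 lower in Bcl2, where 308 of all 13456 genes were higher and 2155 lower.

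**Figure D1:**
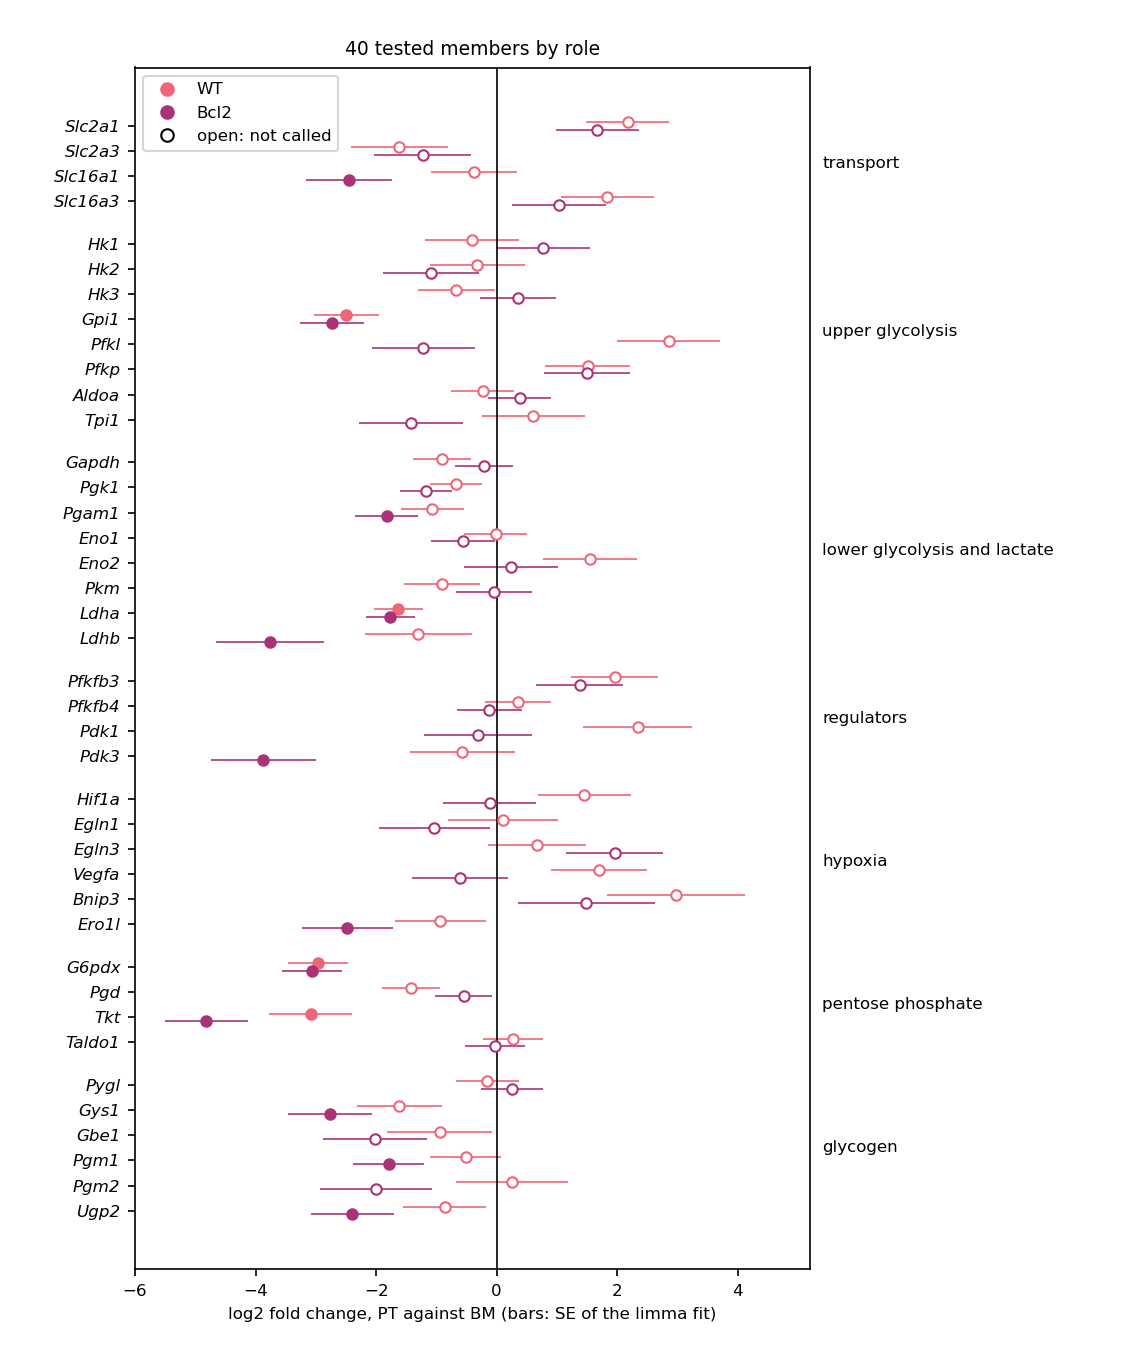
Log2 fold change of PT against BM (x axis) for the 40 tested members, grouped by role, in WT and in Bcl2, with bars for the standard error of the limma fit and filled points for members called. The filled points all lie left of 0: 4 in WT and 12 in Bcl2, with G6pdx, Tkt, Gpi1 and Ldha filled in both.

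Since these 4 genes moved together, the RefSeq sequences before their start sites (build GRCm38.p6) were searched for the core of the hypoxia response element, ACGTG or GCGTG on either strand, within 250 bases. Of the members, 41 had an entry, and Slc2a3 had none. A core was found in 32 of the 41, or 78%, against 38.6% of the 32851 promoters in the table. The comparison is not a test, because the list was chosen for glycolysis and the hypoxia response, many of whose genes Hif1a raises. It also sets 1 window per member against all promoters. Of the 41 member windows, 18 held no annotated exon. The member windows held a median of 60.4% G and C, against 52.4% for all promoters, and the cores hold C and G themselves. The stretches free of annotated exons (GENCODE M21) are shown for the 3 of the 4 genes that have one, and for Slc2a1, the member whose PT libraries were above its BM libraries in both genotypes. Capitals mark the cores. The G6pdx window held 1 core but lies wholly in an annotated exon.
Ldha, chr7:46845554-46845803, plus strand: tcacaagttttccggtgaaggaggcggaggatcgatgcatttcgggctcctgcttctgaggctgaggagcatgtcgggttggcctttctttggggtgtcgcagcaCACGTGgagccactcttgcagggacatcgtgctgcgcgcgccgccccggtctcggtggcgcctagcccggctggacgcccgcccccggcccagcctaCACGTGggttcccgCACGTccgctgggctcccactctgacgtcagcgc
Tkt, chr14:30548881-30549001, plus strand: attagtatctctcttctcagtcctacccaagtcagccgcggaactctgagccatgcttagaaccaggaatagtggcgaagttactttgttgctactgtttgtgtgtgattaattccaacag
Gpi1, chr7:34230337-34230419, minus strand: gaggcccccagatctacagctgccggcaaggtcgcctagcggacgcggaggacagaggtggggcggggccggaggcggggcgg
Slc2a1, chr4:119108495-119108710, plus strand: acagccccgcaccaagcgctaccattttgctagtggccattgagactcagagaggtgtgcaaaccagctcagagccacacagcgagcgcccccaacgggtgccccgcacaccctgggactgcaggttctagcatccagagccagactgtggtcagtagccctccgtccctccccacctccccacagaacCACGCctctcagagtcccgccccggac
Ldha held 5 cores, 4 of them overlapping in pairs within 2 palindromes of CACGTG, the E-box. Among all promoters 6.02% held an E-box, and 5 of the 41 member windows did. Gpi1 held no core in its 250 bases, and Tkt held 1, which lies outside the stretch shown. Slc2a1 held 2, of which 1 is in the stretch shown. A match is a description of the letters only. The starts used by RefSeq lie 4329 bases (Ldha) and 772 bases (Tkt) inside the genes as GENCODE M21 draws them.

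In the pentose phosphate pathway 2 of the 4 genes, G6pdx and Tkt, were lower in PT in both genotypes. G6pdx encodes glucose-6-phosphate dehydrogenase, the first and NADPH-making step, and lies at chrX:74409483-74429194 on the minus strand (GRCm38). It stood at 400.3, 467 and 419.9 TPM in BM WT, 65.1, 59.9 and 40.7 TPM in PT WT, 548, 601 and 298 TPM in BM Bcl2, and 38.7, 43.9 and 93.3 TPM in PT Bcl2. Every PT library was below every BM library. It fell by 2.96 on the log2 scale in WT mice (SE 0.49, adjusted p = 0.00599) and by 3.07 in Bcl2 mice (SE 0.49, adjusted p = 0.00165), and the mean TPM was 7.77-fold and 8.22-fold lower. It was called in all 12 fits that left out 1 library, in both genotypes. Median centring was the only one of the 7 other alternatives to end its call in Bcl2 (log2 -1.48, adjusted p = 0.0933), and none did in WT.

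Tkt encodes transketolase, which shuttles carbon between pentose phosphates and glycolysis (chr14:30548359-30574720, plus strand). Its levels were 146, 82.9 and 96.5 TPM in BM WT, 5.799, 9.27 and 27.1 TPM in PT WT, 132, 118 and 78.8 TPM in BM Bcl2, and 0.801, 7.02 and 2.94 TPM in PT Bcl2. The groups did not overlap by site in either genotype. It fell by 3.09 in WT (log2, SE 0.69, adjusted p = 0.0284) and by 4.82 in Bcl2 (SE 0.69, adjusted p = 0.000974). The WT call was lost without library 4, 5, 6, 10 or 11 (adjusted p up to 0.119), with a pseudocount of 0.1 TPM and with the A or T genes left out, while the Bcl2 call held in all 12 leave-one-out fits and all 7 alternatives.

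The other genes of the pathway, Pgd and Taldo1, were not called. Pgd, 6-phosphogluconate dehydrogenase, which makes NADPH in the second oxidative step, the most abundant of the 4 in mean TPM, gave 333, 506 and 315 TPM in BM WT against 140, 128 and 153 TPM in PT WT, without overlap. Its log2 change there was -1.42 (SE 0.48, adjusted p = 0.137), so it was not called except with quantile normalization (log2 -1.65, adjusted p = 0.0435). In Bcl2 mice Pgd gave 465, 343 and 305 TPM in BM and 468, 178 and 185 TPM in PT, with overlap. Taldo1, transaldolase, ranged from 89.9 to 194 TPM over all 12 libraries, with log2 changes of 0.27 and -0.03. Within a library, where scaling cancels, the ratio of G6pdx to Pgd was between 0.924 and 1.34 in BM WT, between 0.266 and 0.468 in PT WT, between 0.976 and 1.75 in BM Bcl2 and between 0.0828 and 0.503 in PT Bcl2. The ratio of Tkt to Taldo1 was between 0.497 and 1.61 in BM WT and between 0.0413 and 0.146 in PT WT, and between 0.705 and 1.14 in BM Bcl2 and between 0.00708 and 0.0415 in PT Bcl2. Both ratios were therefore lower in every PT library than in any BM library. The pairs of genes for such ratios were chosen after their values were seen, and no test was run on them. As deposited, the 4 genes of the pathway summed to 776 to 1333 TPM in BM and 348 to 620 TPM in PT. Such a sum depends on the scaling between libraries.

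Among the genes of upper glycolysis Gpi1 alone was called. It encodes glucose-6-phosphate isomerase, the second step (chr7:34201330-34230336, minus strand). It measured 246, 207 and 363 TPM in BM WT, 26.1, 39.9 and 94.1 TPM in PT WT, 282, 275 and 239 TPM in BM Bcl2, and 43.0, 50.7 and 27.1 TPM in PT Bcl2. All PT values were below all BM values. On the log2 scale the change was -2.49 for WT mice (SE 0.54, adjusted p = 0.0244) and -2.73 for Bcl2 mice (SE 0.54, adjusted p = 0.00444). The WT call was lost without library 4, 6, 10 or 11 (adjusted p up to 0.108), and centring ended the Bcl2 call (log2 -1.14, adjusted p = 0.1996).

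Aldoa, the aldolase, was the most abundant gene of upper glycolysis in mean TPM. Its levels were 136, 185 and 189.9 TPM in BM WT, 161, 153 and 119.6 TPM in PT WT, 238, 189 and 186 TPM in BM Bcl2, and 583, 222 and 144 TPM in PT Bcl2. It was not called, with log2 changes of -0.23 (SE 0.52) and 0.38 (SE 0.52), and library 7 alone was above all other libraries. The ratio of Gpi1 to Aldoa was between 1.12 and 1.91 in BM WT, between 0.162 and 0.787 in PT WT, between 1.18 and 1.45 in BM Bcl2 and between 0.0736 and 0.228 in PT Bcl2, so the drop in Gpi1 stood also against this neighbour. Aldoc, the brain form of aldolase, was at 0 to 0.525 TPM.

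Phosphofructokinase, the committed step, is encoded by Pfkl, Pfkm and Pfkp. Pfkl, the liver form, had 1.30, 3.79 and 0.472 TPM in BM WT and 6.58, 11.9 and 62.4 TPM in PT WT, but 5.60, 10.1 and 4.84 TPM in BM Bcl2 and 2.97, 3.35 and 0.989 TPM in PT Bcl2. The sites did not overlap in either genotype, in opposite directions. Its log2 change was 2.86 in WT (SE 0.85, adjusted p = 0.0904), which was called only with the A or T genes left out (log2 3.45, adjusted p = 0.0369), and -1.21 in Bcl2 (SE 0.85, adjusted p = 0.317). Pfkp, the platelet form, was between 17.5 and 29.1 TPM in BM WT, between 43.9 and 129.6 TPM in PT WT, between 36.7 and 70.9 TPM in BM Bcl2 and between 50.3 and 416 TPM in PT Bcl2. It was not called as deposited with all libraries (log2 1.51 and 1.499), but was called higher in Bcl2 without library 9 (log2 2.19, adjusted p = 0.0453). It was also called higher in Bcl2 by centring (log2 3.09) and quantile normalization (log2 1.92), and with the A or T genes left out in WT (log2 2.06, adjusted p = 0.0494) and in Bcl2 (log2 2.25, adjusted p = 0.0191). Pfkm, the muscle form, was at 0 in 10 libraries and at most 0.738 TPM.

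Of the hexokinases, which trap glucose in the cell, Hk3 was the most abundant in all 12 libraries. Hk3 took 62.8 to 92.6% of the hexokinase TPM in BM WT, between 47.3 and 93.3% in PT WT, between 65.4 and 66.9% in BM Bcl2 and between 56.1 and 84.3% in PT Bcl2. Its level was 44.1 to 416 TPM, that of Hk2 was 7.93 to 76.1 TPM and that of Hk1 was 2.34 to 46.8 TPM. None of the 3 was called, with log2 changes between -1.09 and 0.77. Tpi1, triosephosphate isomerase, ranged from 2.15 to 59.1 TPM, and in Bcl2 its PT libraries (11.3 to 20.01 TPM) were below its BM libraries (24.1 to 59.1 TPM), with a log2 change of -1.42 (SE 0.86, adjusted p = 0.241).

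In lower glycolysis Ldha was called in both genotypes. It encodes the A subunit of lactate dehydrogenase, which turns pyruvate to lactate (chr7:46841475-46855627, plus strand). Its levels were tight within groups, at 354, 355 and 333 TPM in BM WT, 96.0, 129.8 and 110.3 TPM in PT WT, 516, 443 and 449.9 TPM in BM Bcl2, and 164, 117 and 136 TPM in PT Bcl2. Each PT library lay below each BM library. The log2 change was -1.63 in WT (SE 0.41, adjusted p = 0.0451) and -1.76 in Bcl2 (SE 0.41, adjusted p = 0.0095). The WT call was close to the threshold, and held in 1 of 12 leave-one-out fits, the one without library 7 (adjusted p up to 0.1595). With the A or T genes left out the change was -1.09 in WT (adjusted p = 0.165) and -1.01 in Bcl2 (adjusted p = 0.133), and with centring it was -1.85 in WT (adjusted p = 0.0669) and -0.17 in Bcl2 (adjusted p = 0.841), none of which was called. Summed with table rows that share at least 20% of their 31-mers with it, its change in WT was -1.30 (adjusted p = 0.128). The highest of these rows, Gm11032, shares only 29 31-mers with Ldha, or 0.838% of those of Ldha. Whether reads of Ldha were counted on such rows was not tested. The ratio of Ldha to Aldoa was between 1.76 and 2.59 in BM WT and between 0.597 and 0.922 in PT WT, and between 2.16 and 2.42 in BM Bcl2 and between 0.2805 and 0.944 in PT Bcl2.

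Pgam1, phosphoglycerate mutase, was called in Bcl2 alone. It stood at 192, 141 and 155 TPM in BM WT, 106, 57.2 and 73.1 TPM in PT WT, 126, 243 and 333 TPM in BM Bcl2, and 38.8, 73.5 and 77.7 TPM in PT Bcl2. The sites did not overlap in either genotype. The log2 change was -1.83 in Bcl2 (SE 0.52, adjusted p = 0.0238), which was lost without library 2, 3 or 7, and -1.07 in WT (SE 0.52, adjusted p = 0.319). Ldhb, the B subunit of lactate dehydrogenase, measured 6.07, 0 and 8.72 TPM in BM WT, 3.64, 0 and 0 TPM in PT WT, and 11.4, 8.30 and 20.7 TPM in BM Bcl2, and was listed at 0 in the 3 PT Bcl2 libraries (adjusted p = 0.0107). The call was lost with centring (adjusted p = 0.126) and quantile normalization (adjusted p = 0.0557). No fold is given against a group listed at 0, and these levels rest on few reads. Ldha made up 95.6 to 100% of the TPM of the 2 subunits in every library.

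**Figure D2:**
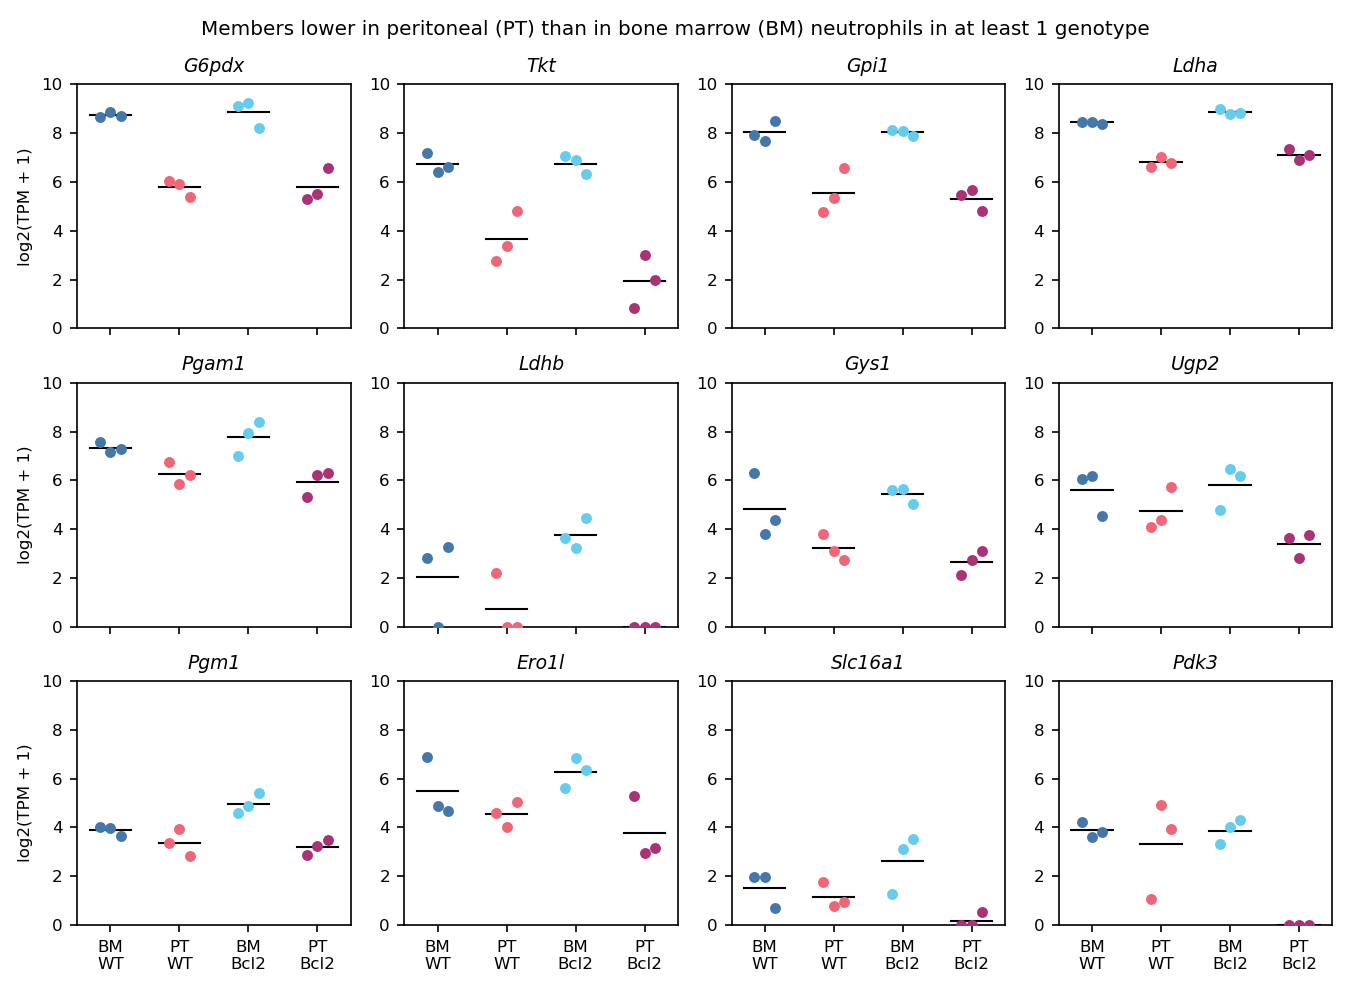
Level of the 12 members called in at least 1 PT against BM comparison, as log2(TPM + 1), with 1 point per library (3 per group) and a line at the mean of the group. G6pdx, Tkt, Gpi1 and Ldha show BM above PT without overlap in both genotypes, and Ldhb and Pdk3 are at 0 in all 3 PT Bcl2 libraries.

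Gapdh, the dehydrogenase of the glycolytic middle step, was the most abundant member, at 1147, 1156 and 1296 TPM in BM WT, 857, 379.6 and 802 TPM in PT WT, 819, 997 and 1271 TPM in BM Bcl2, and 1285, 1101 and 478 TPM in PT Bcl2. It was not called, with log2 changes of -0.90 (SE 0.48) and -0.21 (SE 0.48), although its PT WT libraries were all below its BM WT libraries. Its level is uncertain, because 45 rows of the table share at least 20% of their 31-mers with it. One of them, the pseudogene Gm13394, has 96.8% of its 31-mers in Gapdh and was itself listed between 842 and 2007 TPM in BM WT, between 35.3 and 386 TPM in PT WT, between 1242 and 1713 TPM in BM Bcl2 and between 341 and 1155 TPM in PT Bcl2. Gapdh held 35.1 to 87.6% of the sum of itself and these rows. Without Gapdh, the 45 rows summed to 943, 1136 and 2108 TPM in BM WT and 443, 426 and 114 TPM in PT WT. In Bcl2 they summed to 1515, 1275 and 1840 TPM in BM and 1256, 509 and 352 TPM in PT. When summed with these rows, Gapdh was also not called in either genotype. A like case was Eno1, enolase, at 84.8 to 261 TPM, which held 56.7 to 97.6% of its sum with 3 such rows and was not called (log2 -0.02 and -0.56).

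Pgk1, phosphoglycerate kinase, an enzyme that makes ATP, was not called, but its PT libraries (82.8 to 138 TPM) lay below its BM libraries (179 to 260.1 TPM) in both genotypes. In Bcl2 its log2 change was -1.17 (SE 0.43, adjusted p = 0.0648), which was called with no filter on low levels (adjusted p = 0.0391) and turned to 0.42 with centring. Pkm, pyruvate kinase, was between 241 and 350 TPM in BM WT and between 146 and 163 TPM in PT WT without overlap (log2 -0.91, SE 0.63, adjusted p = 0.505), and between 256 and 351.4 TPM in BM Bcl2 and between 104 and 949 TPM in PT Bcl2, with overlap. Eno2, the neuronal enolase, was at 0 to 11.1 TPM. As deposited, the sum over the 8 genes of lower glycolysis was 2223 to 2895 TPM in BM. It was between 906 and 1518 TPM in PT WT and between 997 and 2741 TPM in PT Bcl2. Such sums depend on the scaling. All 42 members were also summed with the A or T genes left out and the TPM rescaled. That sum was 5290 to 6604 TPM in BM WT and 4997 to 6760 TPM in PT WT. In Bcl2 it was 6101 to 6787 TPM in BM and 6920 to 8922 TPM in PT. As deposited it was 4683 to 5131 TPM in BM WT and 2554 to 3976 TPM in PT WT. For Bcl2 the deposited sum was 5140 to 5598 TPM in BM and 2442 to 6044 TPM in PT.

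**Figure D3:**
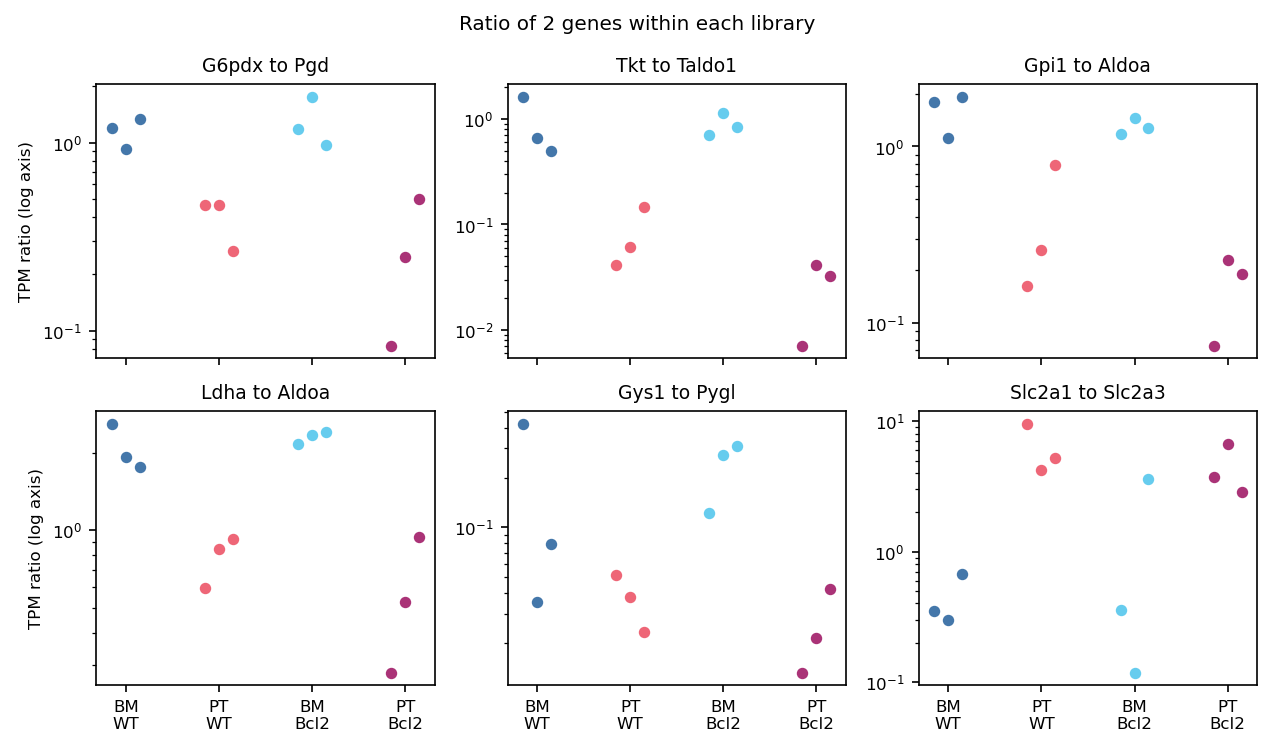
Ratio of the TPM of 2 genes within each library (y axis, log scale), with 1 point per library in each of the 4 groups. G6pdx to Pgd, Tkt to Taldo1, Gpi1 to Aldoa and Ldha to Aldoa are lower in all 6 PT libraries than in all 6 BM libraries, and Slc2a1 to Slc2a3 is higher in PT apart from BM Bcl2 library 3, at 3.62.

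Of the carriers, Slc2a1, the basal glucose carrier GLUT1 (chr4:119108711-119137983, plus strand), was the most abundant in mean TPM and the member whose PT libraries exceeded its BM libraries in both genotypes. It stood at 18.1, 47.0 and 92.8 TPM in BM WT, 197, 161 and 245 TPM in PT WT, 59.9, 11.6 and 51.0 TPM in BM Bcl2, and 144, 98.2 and 88.5 TPM in PT Bcl2. As deposited it was not called in either genotype, where the log2 change for WT mice was 2.17 (SE 0.68, adjusted p = 0.109) and that for Bcl2 mice 1.67 (SE 0.68, adjusted p = 0.0912). With the A or T genes left out it was called in both (log2 2.73 and 2.42, adjusted p = 0.0295 and 0.0286), and with centring in Bcl2 (log2 3.26, adjusted p = 0.0199). Of all tested genes 3.28% were higher without overlap in both genotypes, beside this 1 of 40 members, or 2.5%, and 5.45% were lower, beside 7 members, or 17.5%. The 7 were Gpi1, Pgk1, Pgam1, Ldha, G6pdx, Tkt and Gys1. Within each genotype, the sites did not overlap for 6 members higher and 12 lower in WT (15 and 30%, against 14.9 and 7.97% of all genes), and for 2 higher and 16 lower in Bcl2 (5 and 40%, against 5.18 and 32.6%).

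Slc2a3, the high-affinity carrier GLUT3, measured 51.5, 157 and 137 TPM in BM WT, 20.5, 38.0 and 46.5 TPM in PT WT, 168, 98.3 and 14.1 TPM in BM Bcl2, and 38.5, 14.8 and 30.6 TPM in PT Bcl2. It was not called, with log2 changes of -1.61 (SE 0.80) and -1.23 (SE 0.80), and its BM Bcl2 library 3 was below every PT library. Of the TPM of both carriers Slc2a1 took between 23.0 and 40.4% in BM WT, between 80.9 and 90.6% in PT WT, between 10.6 and 78.4% in BM Bcl2 and between 74.3 and 86.9% in PT Bcl2. The order of the 2 carriers was thus reversed between the sites in all WT libraries, and in Bcl2 in all but BM library 3.

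The monocarboxylate carriers move lactate across the membrane. Slc16a3, which exports lactate, gave 16.6, 77.2 and 41.2 TPM in BM WT, 74.1, 88.5 and 391 TPM in PT WT, 98.6, 18.6 and 30.4 TPM in BM Bcl2, and 59.1, 106 and 81.7 TPM in PT Bcl2. The sites overlapped in both genotypes, and its log2 changes, 1.83 (SE 0.77) and 1.04 (SE 0.77), were not called, except in Bcl2 with centring (log2 2.63, adjusted p = 0.0465). Slc16a1, the broader carrier MCT1, measured 2.86, 2.89 and 0.624 TPM in BM WT, 2.36, 0.720 and 0.926 TPM in PT WT, 1.43, 7.73 and 10.4 TPM in BM Bcl2, and 0, 0 and 0.463 TPM in PT Bcl2. It was called lower in Bcl2 (log2 -2.46, SE 0.71, adjusted p = 0.026), at levels of few reads, and the call was lost without library 2, 3, 7 or 8. Slc16a3 took 70.7 to 100% of the TPM of these 2 carriers.

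**Figure D4:**
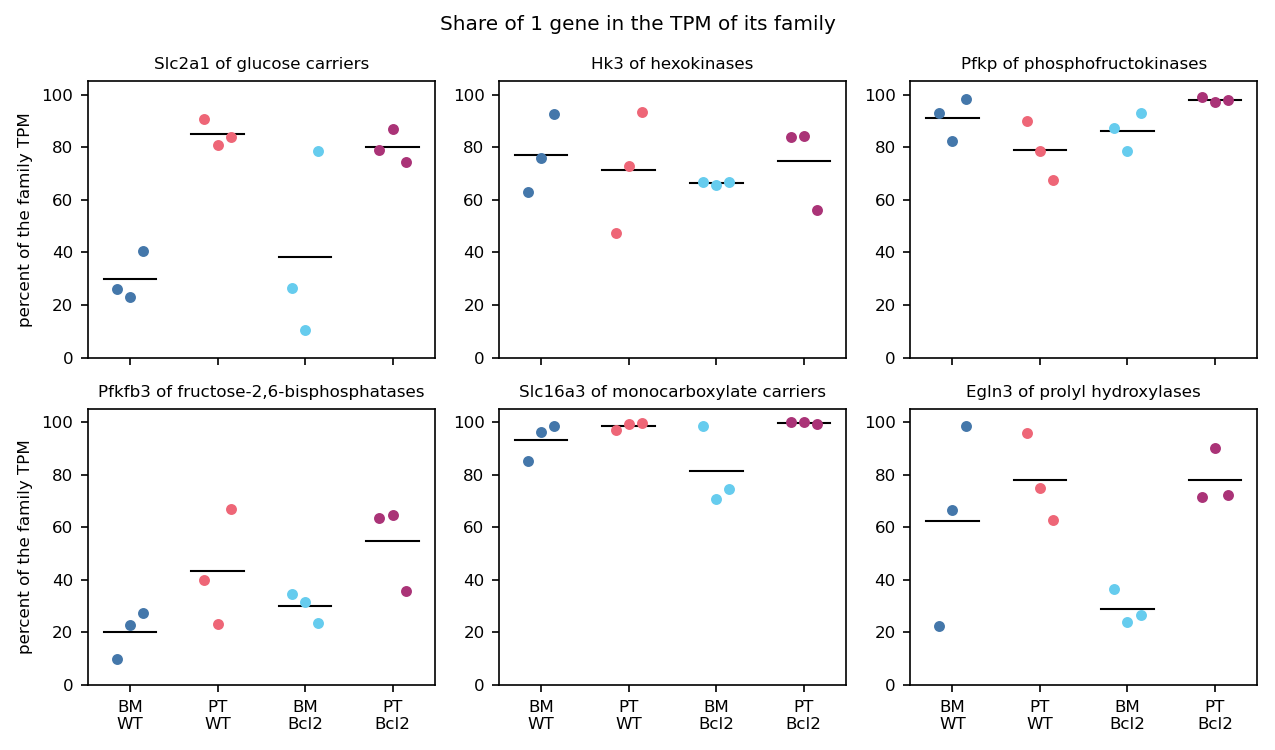
Share of 1 gene in the TPM of its enzyme or carrier family (y axis, percent), with 1 point per library and a line at the mean of the group. Slc2a1 took 80.9 to 90.6% of the glucose carrier TPM in PT WT and between 23.0 and 40.4% in BM WT, while Hk3 overlapped between the sites.

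In glycogen metabolism 3 of the 6 genes were called lower in Bcl2 and none in WT, where 19.1 and 1.22% of all genes tested were lower. The 3 include the row named Pgm1, which has another symbol in GENCODE M21, as given below. Gys1, glycogen synthase, stood at 77.3, 13.0 and 19.7 TPM in BM WT, 12.9, 7.69 and 5.56 TPM in PT WT, 47.0, 49.5 and 31.9 TPM in BM Bcl2, and 3.39, 5.66 and 7.63 TPM in PT Bcl2. The BM and PT libraries did not overlap in either genotype, although the WT gap was narrow. Its log2 change was -2.77 in Bcl2 (SE 0.70, adjusted p = 0.0143), lost without library 2, and -1.61 in WT (SE 0.70, adjusted p = 0.262). Ugp2, which makes the UDP-glucose that glycogen synthase uses, measured 65.5, 72.4 and 22.4 TPM in BM WT, 16.2, 19.8 and 52.4 TPM in PT WT, 26.7, 86.9 and 70.7 TPM in BM Bcl2, and 11.4, 6.06 and 12.6 TPM in PT Bcl2. It fell by 2.40 in Bcl2 (log2, SE 0.69, adjusted p = 0.025), lost without library 2, 3 or 8, and overlapped in WT (log2 -0.86, SE 0.69).

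Phosphoglucomutase links glycogen to glucose 6-phosphate. Its rows were placed in this group by their symbols in the table, and GENCODE M21 exchanges those symbols. A glycogen role for the called row therefore rests on its table symbol only. The row named Pgm1 in the table (ENSMUSG00000029171, chr5:64092950-64128351, plus strand, named Pgm2 in GENCODE M21) measured 15.1, 15.0 and 11.4 TPM in BM WT, 9.15, 14.1 and 6.18 TPM in PT WT, 23.3, 28.8 and 42.1 TPM in BM Bcl2, and 6.33, 8.36 and 10.1 TPM in PT Bcl2. It was called lower in Bcl2 (log2 -1.79, SE 0.59, adjusted p = 0.0429), near the threshold, and in 3 of the 12 leave-one-out fits (adjusted p up to 0.157). The row named Pgm2 (ENSMUSG00000025791, chr4:99929414-99987294, named Pgm1 in GENCODE M21) was at 0 to 8.34 TPM over the libraries and was not called in Bcl2 (log2 -1.997, SE 0.93, adjusted p = 0.132), but was without library 9 (log2 -2.93, adjusted p = 0.0408). Gbe1, the branching enzyme, was between 11.2 and 45.4 TPM in BM WT and between 7.26 and 10.6 TPM in PT WT without overlap, and in Bcl2 at 18.1 to 46.4 TPM in BM and 2.46 to 35.2 TPM in PT (log2 -2.02, SE 0.87, adjusted p = 0.106). The call for Gbe1 in Bcl2 was made without library 7 (log2 -3.08, adjusted p = 0.0175).

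Pygl, the phosphorylase that breaks glycogen down, was the most abundant gene of this group, at 183, 369.6 and 249 TPM in BM WT, 252, 203 and 239 TPM in PT WT, 384, 179.9 and 102 TPM in BM Bcl2, and 256, 265 and 179.5 TPM in PT Bcl2. The sites overlapped fully and the log2 changes were -0.15 (SE 0.52) and 0.26 (SE 0.52). The ratio of Gys1 to Pygl was between 0.0353 and 0.424 in BM WT and between 0.0232 and 0.0514 in PT WT, with overlap, and between 0.123 and 0.311 in BM Bcl2 and between 0.0133 and 0.0425 in PT Bcl2, without. The call for Gys1 was lost with centring (log2 -1.18), quantile normalization (-1.59) and the A or T genes left out (-2.11), as were those of Ugp2, Pgm1, Pgam1 and Slc16a1 under the same 3 scalings.

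The regulators adjust the flow through glycolysis and into the mitochondrion. Pfkfb4 and Pfkfb3 make fructose 2,6-bisphosphate, which switches phosphofructokinase on. Pfkfb4, the most abundant of the group, measured 65.1, 126 and 37.7 TPM in BM WT, 95.3, 124 and 55.1 TPM in PT WT, 109.9, 94.1 and 71.8 TPM in BM Bcl2, and 100.2, 76.6 and 75.3 TPM in PT Bcl2, with overlap between the sites. Pfkfb3 gave 7.25, 37.2 and 14.2 TPM in BM WT against 63.0, 37.7 and 112 TPM in PT WT, and 58.1, 43.4 and 22.0 TPM in BM Bcl2 and 176, 139 and 42.0 TPM in PT Bcl2. Its PT WT libraries were just above its BM WT libraries. It was not called in WT (log2 1.96, SE 0.73, adjusted p = 0.179) except with the A or T genes left out (log2 2.52, adjusted p = 0.0464), nor in Bcl2 (log2 1.38, SE 0.73, adjusted p = 0.179) except with centring (log2 2.97, adjusted p = 0.0293). Its share of the Pfkfb TPM was between 10.03 and 27.3% in BM WT, between 23.4 and 67.1% in PT WT, between 23.5 and 34.6% in BM Bcl2 and between 35.8 and 64.5% in PT Bcl2.

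The pyruvate dehydrogenase kinases Pdk1 and Pdk3 hold pyruvate back from the mitochondrion. Pdk3 measured 17.7, 11.3 and 12.9 TPM in BM WT, 1.09, 29.1 and 14.4 TPM in PT WT and 8.95, 15.0 and 18.6 TPM in BM Bcl2, and was listed at 0 in the 3 PT Bcl2 libraries. It was called lower in Bcl2 (adjusted p = 0.00811) in all 12 leave-one-out fits, though not with centring (adjusted p = 0.0655), and overlapped in WT. Pdk1 was at 0.482 to 4.41 TPM in 11 libraries and at 53.5 TPM in PT WT library 10, and its log2 change of 2.34 in WT (SE 0.90, adjusted p = 0.198) was not called.

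Of the 6 genes of the hypoxia response, 1 was called lower in Bcl2, where 19.1% of all genes tested were lower, and none was called in WT. Vegfa, a growth factor for vessels, Bnip3, a mitochondrial protein, and Egln3, a prolyl hydroxylase, are raised by Hif1a, and Ero1l, an oxidase of the endoplasmic reticulum, is too. Ero1l measured 119, 28.7 and 24.4 TPM in BM WT, 23.1, 15.3 and 31.8 TPM in PT WT, 48.1, 114 and 80.9 TPM in BM Bcl2, and 37.7, 6.72 and 7.90 TPM in PT Bcl2. It was lower in Bcl2 (log2 -2.48, SE 0.76, adjusted p = 0.0317), and the call was lost without library 2, 3, 8 or 9 and under all 3 scalings as well as without the filter on low levels. Hif1a itself, the most abundant of the group in mean TPM, measured 20.1, 57.5 and 19.6 TPM in BM WT, 46.8, 45.7 and 233 TPM in PT WT, 62.9, 27.5 and 73.0 TPM in BM Bcl2, and 115, 23.8 and 35.8 TPM in PT Bcl2. Its sites overlapped in both genotypes, with log2 changes of 1.45 (SE 0.78) and -0.12 (SE 0.78).

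Egln3 was higher in the PT libraries of Bcl2, at 37.6, 55.0 and 9.29 TPM against 7.18, 5.67 and 5.97 TPM in BM Bcl2, and was between 4.71 and 44.3 TPM in BM WT and between 16.7 and 24.9 TPM in PT WT. The change in Bcl2, a log2 of 1.96 (SE 0.81, adjusted p = 0.0949), was not called as deposited, but was with centring (3.55), quantile normalization (2.97), the A or T genes left out (2.70) and without library 9 (2.68), with adjusted p between 0.0272 and 0.0445. Egln1, the main oxygen sensor, was at 0.598 to 17.99 TPM, and of the TPM of both, Egln3 held 22.5 to 98.7% in the BM and 62.6 to 95.8% in the PT libraries of WT mice, with overlap, but 23.9 to 36.6% in BM Bcl2 and between 71.4 and 90.0% in PT Bcl2. Bnip3 gave 0.843, 9.58 and 1.51 TPM in BM WT against 43.7, 27.4 and 17.8 TPM in PT WT without overlap (log2 2.98, SE 1.14, adjusted p = 0.195), and overlapped in Bcl2, at 1.14 to 21.4 TPM in BM and 1.36 to 43.5 TPM in PT. Vegfa was between 5.70 and 66.8 TPM in BM WT, between 41.3 and 77.1 TPM in PT WT, between 24.6 and 100.4 TPM in BM Bcl2 and between 25.2 and 48.6 TPM in PT Bcl2.

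**Figure D5:**
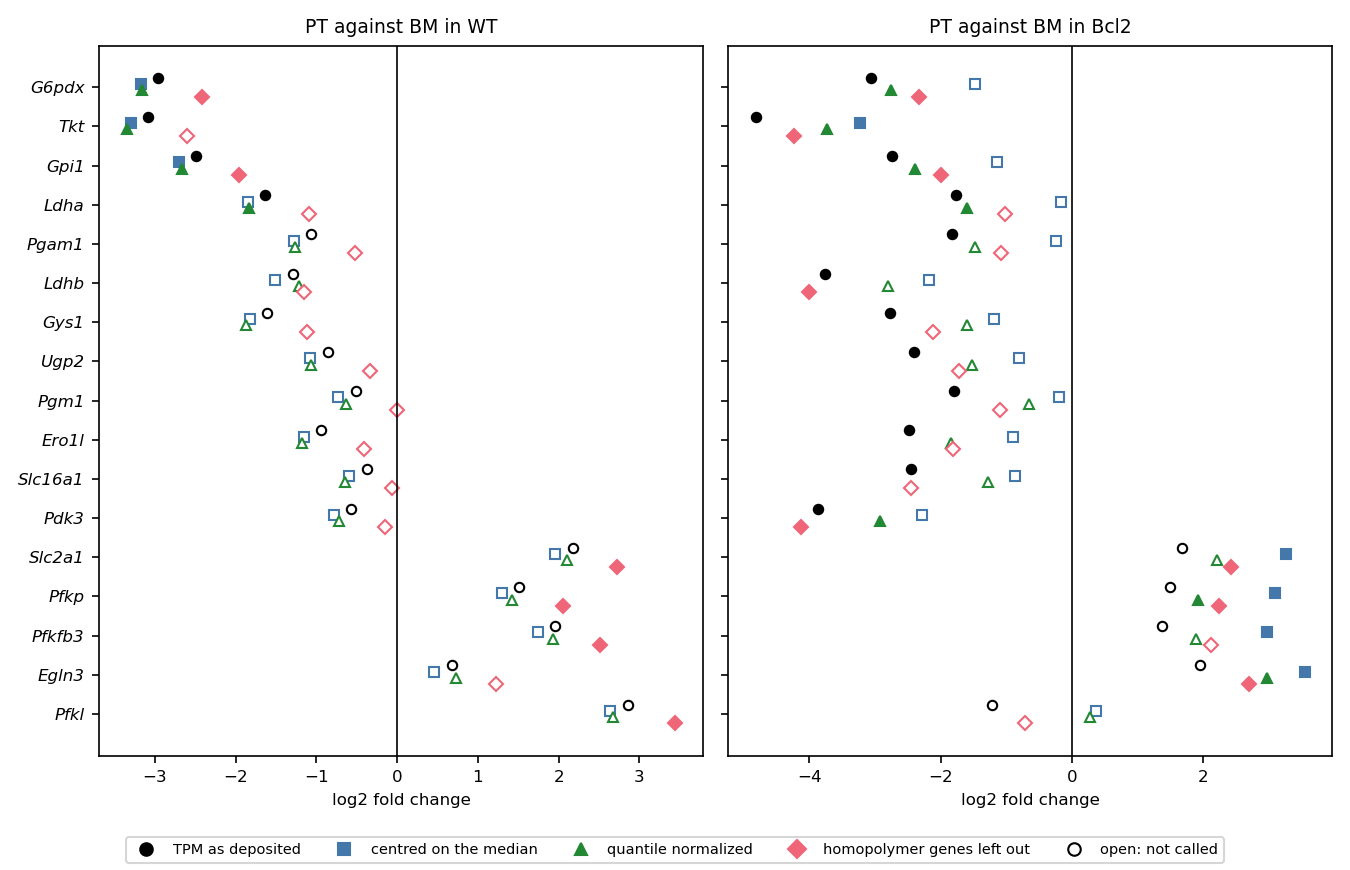
Log2 fold change of PT against BM (x axis) for the 12 called members and 5 others, with the TPM as deposited, with centring on the median, with quantile normalization and with the A or T genes left out, in WT and in Bcl2, where filled points are called. G6pdx, Tkt and Gpi1 stay left of 0 under every scaling, and Slc2a1, Pfkp, Pfkfb3 and Egln3 stay right of 0, with filled points under some scalings only.

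The second question was whether Bcl2 changes these genes at either site. By limma no member was called in Bcl2 against WT in BM, where 0.0149% of all genes were higher and 0.00743% lower, nor in PT, where 0% were higher and 0.0297% lower. At an unadjusted p under 0.05 there were 2 members in BM, both higher in Bcl2 (5% of the members, beside 7.36% of all genes in either direction), and 5 in PT, all lower (12.5%, beside 12.7%). The 2 in BM were Tpi1 (log2 1.94, SE 0.86, adjusted p = 0.673) and Vegfa (log2 1.73, SE 0.80, adjusted p = 0.673), and in PT the smallest p was that of Pdk3, listed at 0 in PT Bcl2 (adjusted p = 0.189), the 1 member called there with a pseudocount of 0.1 TPM. The difference between genotypes in the change from BM to PT was called for none of the 40 members, and for 0.0149% of all genes, all lower. Unadjusted, it reached p under 0.05 for Pfkl and Pdk3, or 5% of the members, beside 16.9% of all genes. Without library 9, limma again called no member in PT, where 2 of the 13456 genes were higher and 15 lower. At an unadjusted p under 0.05, 3 members were then higher and 4 lower, beside 1997 of all genes in either direction. The difference between genotypes in the change was still called for no member. Unadjusted, it reached p under 0.05 for 3 members, beside 2427 of all genes. The genotypes did not overlap for 4 members higher and 0 lower in BM (10 and 1.17% of all genes), and for 1 higher and 7 lower in PT (0.587 and 18.8%). These members were named after their values were seen. The sizes of the changes in the 2 genotypes can therefore not be said to differ for any member, nor to be the same.

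A list of 75 other genes of these pathways gave 58 that could be tested. In WT 3 were lower in PT and none higher, and in Bcl2 10 were lower and 1 higher, with median changes of -0.12 and -0.90, beside 0.22 and -1.02 for all genes. The share lower was 5.17% in WT, where 1.22% of all genes were, and 17.2% in Bcl2, where 19.1% were. Lower in both were Adpgk and Mpc2. Adpgk, a glucokinase that uses ADP, measured 482, 542 and 498 TPM in BM WT, 19.4, 23.4 and 13.2 TPM in PT WT, 743, 465 and 151 TPM in BM Bcl2, and 62.4, 88.3 and 27.2 TPM in PT Bcl2. Its log2 changes were -4.72 (SE 0.61, adjusted p = 0.00132) and -2.79 (SE 0.61, adjusted p = 0.00738), and in its BM libraries it stood above all hexokinases of the members. Mpc2, a subunit of the mitochondrial pyruvate carrier, was between 78.8 and 367 TPM in BM WT, between 6.95 and 16.1 TPM in PT WT, between 68.0 and 99.9 TPM in BM Bcl2 and between 1.04 and 7.79 TPM in PT Bcl2, with log2 changes of -3.53 (SE 0.71, adjusted p = 0.0161) and -4.18 (SE 0.71, adjusted p = 0.00221). The third lower in WT was Ldhc, between 1.99 and 14.4 TPM in BM WT and listed at 0 in PT WT, and the 1 higher in Bcl2 was Phkg1, a subunit of phosphorylase kinase, between 161 and 197 TPM in BM Bcl2 and between 317 and 748 TPM in PT Bcl2 (with between 175 and 222 TPM in BM WT and between 439 and 827 TPM in PT WT; log2 in Bcl2 1.54, SE 0.46, adjusted p = 0.0282). Both were named after their values were seen. Among the PT libraries Phkg1 was lowest in library 7 (317 TPM) and library 12 (439 TPM), whose A or T share was in the BM range. Both values were still above every BM library. The part of the A or T share in this change was not tested. For these 58 genes only the TPM as deposited was used, so how their calls depend on the scaling is not given.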

How the data were processed

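RNA of sorted mouse cells was sequenced in 12 libraries, 3 in each of 4 groups, after amplification of the cDNA. According to the methods, AltAnalyze was run with its defaults. The authors deposited log2(TPM + 1) per gene and library, and linear TPM averages per group, which equalled the means of the library columns. The genome build and the test behind the authors' own fold changes and p-values, which were not used, are not given in the sources used here. A further table with estimated reads and TPM of a single library (2 columns) names no sample and was not used. Column names gave the group of each library but not its mouse.

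The 13456 genes reaching 1 TPM in 3 or more libraries were compared on log2(TPM + 1), a pseudocount of 1 TPM, with limma 3.58.1 in R 4.3.3 in 1 fit of the 4 groups (eBayes with a trend, 8 residual degrees of freedom) and Benjamini-Hochberg adjustment over all genes. Fold changes on this scale understate those of low genes. Identifiers, coordinates and 31-mers came from GENCODE M21 (GRCm38), which has a record for 27475 of the 28987 genes. Depth was estimated from the TPM that 1 read is worth: 76.3 to 84.1% of low values lay within 0.15 of a whole read. By chance 30% would at a fixed value of 1 read, but that value was chosen to give the largest share. The deposited values are log2(TPM + 1) and not counts, so no count test was run.

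The members, their roles and all lists were chosen with earlier results of these data known. Every member is named with its level. Values in each library are given for called members and for the most abundant member of each role, and folds with errors for called members and the 5 uncalled ones of smallest p in each PT against BM comparison (but no fold where a group is listed at 0, as for Ldhb and Pdk3), while further genes given so were chosen after their values were seen. Of other pathway genes, those called the same way in both genotypes are named. Alternatives were a pseudocount of 0.1 TPM, no filter, median centring, quantile normalization, the 108 genes with A or T runs left out and the TPM rescaled, members summed with rows that share at least 20% of their 31-mers, and leaving out each library. Summing members with such rows while also leaving out the A or T genes was added after seeing the data. Summaries and figures were made with Python 3.11.15.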

Additional observations from a re-analysis of the deposited data

Results flagged for a closer look

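Pfkl, the liver form of phosphofructokinase, drew attention because every PT library was above every BM library in WT (6.58 to 62.4 against 0.472 to 3.79 TPM) and below every BM library in Bcl2 (0.989 to 3.35 against 4.84 to 10.1 TPM). The difference between the 2 changes was tested by the interaction in limma and was a log2 of -4.07 (SE 1.21, unadjusted p = 0.00418, adjusted p = 0.221), so it did not pass the correction over all genes. The levels are low, and PT WT library 12, with 62.4 TPM, also had the highest sum of mast cell genes, 633 TPM, whose part was not tested. Without library 12 the change of Pfkl in WT kept its sign. With centring the change in Bcl2 was 0.37 and with quantile normalization 0.28, so that its direction there depended on the scaling.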

How the results depend on the processing

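No paired analysis was possible because the library columns carry no replicate or mouse number that could match a library of one group to a library of another. Leaving out the A or T genes gave 4 members higher and 2 lower in PT WT, and 3 higher and 5 lower in PT Bcl2, and the same counts were found when members were also summed with rows of shared sequence. In Bcl2, median centring called 6 members (5 higher, 1 lower) and quantile normalization 7 (2 higher, 5 lower). A pseudocount of 0.1 TPM called 1 member, Pdk3, between the genotypes in PT. The change of Pgk1 in Bcl2 turned to 0.42 (log2) with centring. When 1 library was left out, 1 to 4 members were called in WT, all lower, with 1 without library 4, 6, 10 or 11 and 2 without library 5. In Bcl2 6 to 13 were called, 6 to 12 of them lower and 0 to 2 higher. There were 6 lower without library 2, 7 lower without library 3, and 2 higher without library 9. The counts over all 13456 genes moved as well. In WT 164 genes were lower with all libraries. Without library 4, 5, 6, 10 or 11 there were 56, 134, 109, 50 and 79. In Bcl2 2567 genes were lower with all libraries, 1341 without library 2 and 1042 without library 3. Without library 9, 308 were higher, against 311 with all. The causes of these shifts were not tested. Over all alternatives, 141 counts of called members were equal or close to the main count, 8 rose and 22 fell. Many of these were counts of 0 that stayed at 0. Total, higher and lower counts of the same calls also entered separately, so the tally does not measure stability. The 26 PT against BM changes of the called members and the 5 uncalled ones of smallest p gave 494 values. Of these, 391 kept their direction and side of the threshold, 18 gained a call, 84 lost one and 1 reversed. Over all 40 members, centring moved the number with a change above 0 in Bcl2 from 11 to 26. Genes of a few TPM rest on few reads, so differences among them may not be detectable at this depth.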
